A study of Homo sapiens with 6 samples.

Results

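The clusters described here are 200893 short intronic places where RNA was protected with wild-type Rbfox1 and no RNA was listed with the F125A form of the protein. They are the clusters of the wild-type (WT) list that name a single gene and share not even 1 nt, on the same chromosome and strand, with any cluster of the F125A list. They make up 55.3% (exact 95% interval 55.1 to 55.4%) of the 363377 different single-gene WT clusters, and 200893 of the 554456 different clusters of both lists together. The other 162484 WT clusters, which have an F125A partner, are the set they are compared with. The rule used the overlap of the 2 lists, so the lack of a partner is a description and not a finding.

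The RNA came from HEK293 Flp-In cells, an established human embryonic kidney line with 1 site for inserting a transgene, of the single Rbfox2 knockout clone 7. All samples share that knockout. There were 3 libraries from cells with FLAG-tagged Rbfox1(WT), 2 from cells with FLAG-tagged Rbfox1(F125A) and 1 control library without a transgene, which was not analysed here. Complexes of Rbfox1 with LASR were purified, and the RNA inside them that nuclease had spared was sequenced as inserts of 20 to 80 nt. Each Rbfox1 form has 1 list of clusters in introns of protein-coding genes on hg38, without read counts or scores. No value therefore has a replicate error, no test of conditions can be made, read depth is unknown, and all intervals cover counting error alone. With 3 libraries behind one list and 2 behind the other, a site lost with F125A and a site missed in the smaller list cannot be told apart for a single cluster.

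Rbfox proteins are splicing regulators with 1 RNA recognition motif that binds the RNA pentamer GCAUG, most strongly after a U. Bound in introns beside alternative exons they raise or lower the use of those exons, in brain, muscle and many cell lines. LASR, the large assembly of splicing regulators, holds hnRNP M, hnRNP H, hnRNP C, Matrin 3 and other proteins, each with its own preference for RNA. F125A replaces a phenylalanine of the recognition motif and is known to impair binding to the pentamer while the protein still joins LASR. The comparison thus asks which protected places depend on sequence recognition by Rbfox1 and which are held by the rest of the assembly.

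Clusters without an F125A partner carried the Rbfox pentamer far more often than clusters with one. Sequence was at hand for clusters wholly inside a RefSeq window around an annotated start (GRCh38.p14, 250 bases before to 50 after the start, on every chromosome but 8). These were 286 clusters without a partner, 0.142% of them, and 713 with a partner, 0.439%. GCATG, read on the transcribed strand, stood in 89 of the 286, or 31.1% (exact 95% interval 25.8 to 36.8%), and in 30 of the 713, or 4.21% (2.86 to 5.95%). The 89 clusters lay in 87 host genes. Among stretches of 60 bases cut from all 35116 windows, 4.19% held the pentamer on the strand of the gene and 4.05% on the other strand, and 29.5% of whole windows held it on either strand. The clusters with a partner were thus near the background of the windows and those without a partner were above it. Clusters inside such windows are a small and particular part of the whole, and the other clusters had no sequence here.

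The 10 clusters below are those without a partner that held the most pentamers, taken farthest from an F125A cluster first where the number was equal. They were chosen for the pentamer, out of 67 that lay clear of the 50 bases after an annotated start, so they show the motif and do not measure it. Each is written 5′ to 3′ on the transcribed strand from RefSeq GRCh38.p14, with every GCATG in capitals.
OPRL1, nociceptin receptor gene, chr20:64092495-64092571, plus strand: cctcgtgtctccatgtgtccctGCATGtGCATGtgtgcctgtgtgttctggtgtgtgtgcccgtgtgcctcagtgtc
ADH5, an alcohol dehydrogenase gene, chr4:99088620-99088659, minus strand: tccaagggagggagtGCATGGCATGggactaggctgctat
TOE1, a nuclear 3′ exonuclease gene, chr1:45340478-45340537, plus strand: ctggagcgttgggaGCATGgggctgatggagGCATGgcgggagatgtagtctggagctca
CELF1, a splicing regulator gene, chr11:47524825-47524897, minus strand: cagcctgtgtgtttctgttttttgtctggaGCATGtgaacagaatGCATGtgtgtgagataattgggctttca
MTCL1, a microtubule crosslinking factor gene, chr18:8707783-8707839, plus strand: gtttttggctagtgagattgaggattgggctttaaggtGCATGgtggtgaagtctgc
TBC1D14, a TBC domain protein gene, chr4:6987447-6987499, plus strand: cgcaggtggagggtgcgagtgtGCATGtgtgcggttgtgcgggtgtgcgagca
SYK, a tyrosine kinase gene, chr9:90827330-90827378, plus strand: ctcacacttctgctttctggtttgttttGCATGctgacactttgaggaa
TTLL4, a tubulin polyglutamylase gene, chr2:218711600-218711662, plus strand: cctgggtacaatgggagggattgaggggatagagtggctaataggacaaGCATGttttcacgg
FAM149A, chr4:186144359-186144403, plus strand: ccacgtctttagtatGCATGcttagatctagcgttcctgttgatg
CDK14, a cyclin-dependent kinase gene, chr7:90709668-90709714, plus strand: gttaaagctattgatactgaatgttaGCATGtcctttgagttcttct

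The first 4 held 2 pentamers each and are the complete set with more than 1 among the 286. In OPRL1 the pentamers stood 1 base apart inside a stretch rich in TGTG, and in ADH5 they followed each other without a gap. CELF1 had GCATGT at both of its sites. The nearest F125A cluster lay 3407 nt away in OPRL1, 3343 nt in ADH5, 998 nt in TOE1, 273 nt in CELF1 and 14052 nt in MTCL1. These distances span from close neighbours of F125A clusters to places far from any.

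For contrast, 4 of the clusters that did have an F125A partner and still held the pentamer are shown, picked by the most pentamers and then the shortest length.
TMEM91, chr19:41377187-41377257, plus strand: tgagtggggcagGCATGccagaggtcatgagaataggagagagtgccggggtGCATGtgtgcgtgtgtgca
ZNF580, a zinc finger gene, chr19:55641970-55641999, plus strand: ctgcgGCATGtagtggggacggagggccag
IL18BP, interleukin 18 binding protein gene, chr11:71999403-71999436, plus strand: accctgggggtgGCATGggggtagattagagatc
ZSCAN5A, a zinc finger gene, chr19:56314591-56314628, minus strand: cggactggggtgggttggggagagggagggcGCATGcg
All 4 hold runs of 3 or more G, and so do some clusters without a partner shown above, among them those in ADH5, TOE1 and TTLL4. Over the 30 partnered clusters with the pentamer, F125A clusters covered a median of 89.1% of the cluster (quartiles 71.6 and 97.5%), against 97.7% (87.7 and 100%) over the 683 without it.

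The hexamer TGCATG was also more frequent without a partner. It stood in 58 of 286 clusters without a partner, 20.3% (15.8 to 25.4%), and in 13 of 713 with one, 1.82% (0.974 to 3.10%). A T came before 59 of the 93 pentamers in clusters without a partner, 63.4%, and before 13 of the 32 in clusters with a partner, 40.6%. Seen from the motif, 81.7% (70.7 to 89.9%) of the 71 clusters with the hexamer had no partner. The same held for 64.6% (49.5 to 77.8%) of the 48 clusters with a pentamer that no T preceded. Of the 880 clusters with no pentamer, 22.4% (19.7 to 25.3%) had no partner. The level to set these shares against is the 28.6% without a partner among all 999 WT clusters with sequence. It is lower than the 55.3% of all WT clusters. The intervals with and without the hexamer overlap among clusters with a pentamer, and both lie above that of the clusters with no pentamer.

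The pentamer lay inside the protected stretch and on the RNA strand. Clusters without a partner held 5.75 pentamers per kb, and the rest of their windows, read on the same strand, held 0.919 per kb. For clusters with a partner the values were 0.767 and 0.685 per kb. Within clusters without a partner, 29.0% of the 93 pentamers fell at 40 to 60% of the length from the 5′ end, 29.0% at 20 to 40% and 24.7% at 60 to 80%. The first 20% of the length held 7.53% of them and the last 20% held 9.68%, so most lay away from the ends. The pentamer of the opposite strand, CATGC, stood in 10.1% (6.90 to 14.2%) of clusters without a partner and in 2.24% (1.29 to 3.62%) of those with one. CATGC shares 4 letters with GCATG, and in the palindrome GCATGC they occur together. Outside that palindrome CATGC was left in 2.10% (0.774 to 4.51%) of clusters without and 0.982% (0.396 to 2.01%) of clusters with a partner, whereas GCATG outside it stood in 22.7% (18 to 28%) and 3.09% (1.94 to 4.63%).

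**Figure D1:**
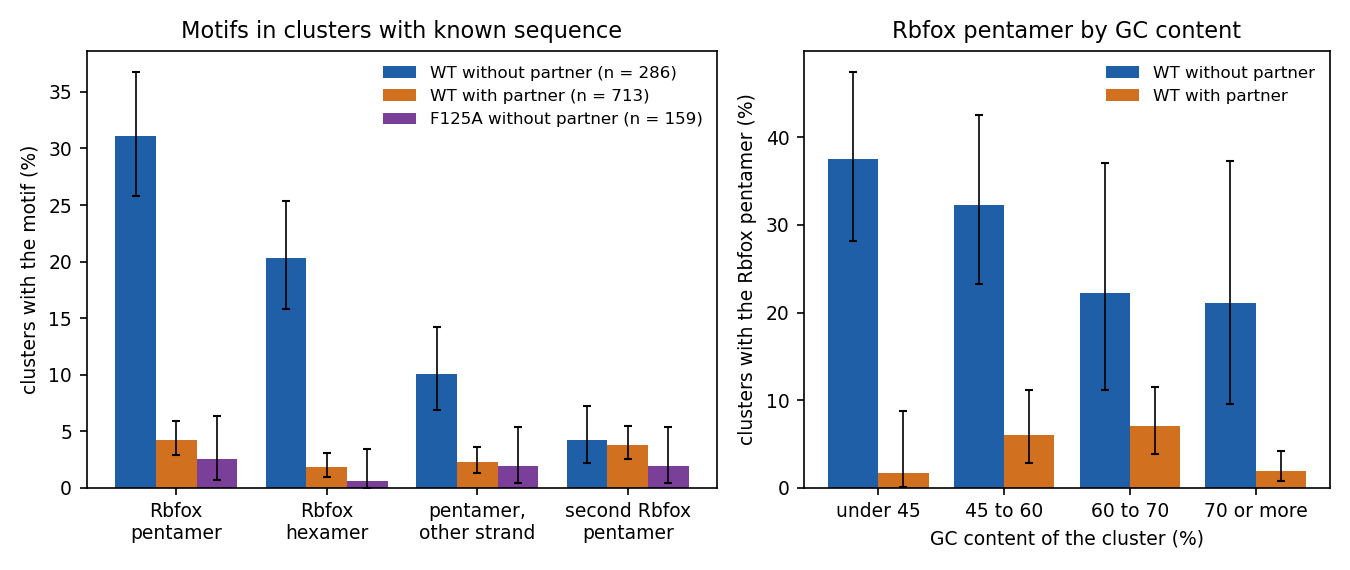
Left, the share of clusters with known sequence that hold each motif (percent, bars with exact 95% binomial intervals), for WT clusters without a partner, WT clusters with a partner and F125A clusters without a partner. Right, the share with the Rbfox pentamer by GC content of the cluster. The pentamer stands in 31.1% of WT clusters without a partner and in 4.21% of those with one, and the first bar is the higher of the pair in all 4 GC classes.

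The sets also differed in base composition, with a median GC content of 50.6% without and 67.9% with a partner. The difference in the pentamer was present within each GC class. Below 45% GC it stood in 37.5% (28.2 to 47.5%) of 104 clusters without and in 1 of 61 with a partner. From 45 to under 60% GC it stood in 32.3% (23.3 to 42.5%) and 6.08% (2.82 to 11.2%), from 60 to under 70% in 22.2% (11.2 to 37.1%) and 7.00% (3.88 to 11.5%), and from 70% up in 21.1% (9.55 to 37.3%) and 1.97% (0.728 to 4.25%). In the class from 60 to under 70% the intervals overlap slightly at their ends. Cluster length was similar in this subset, with medians of 53 and 54 nt. In windows of another gene than the host gene the shares were 34.9% and 5.09%, and in the host gene's own window 28.0% and 3.65%.

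Ranked by the difference between the 2 sets in the share of clusters that held it, GCATG was first of all 1024 pentamers, at 26.9 percentage points. The next, TGCAT (23.8% and 2.38%) and CATGT (14.7% and 2.66%), overlap it by 4 letters. They were followed by GTTTT (17.8% and 6.17%), TTGTT (17.1% and 6.87%) and TGTTT (19.2% and 8.98%), which hold only G and T. At the other end stood GGGGG (23.4% and 54.3%), GCGGG (17.1% and 45.9%) and GGGCG (17.8% and 45.7%), more frequent with a partner. Among motifs of the assembly's other proteins, the G run GGGG, of the kind hnRNP H binds, stood in 51.0% (45.1 to 57.0%) of clusters without and 82.9% (79.9 to 85.6%) with a partner. The T run TTTTT, of the kind hnRNP C binds, stood in 16.8% (12.6 to 21.6%) and 6.73% (5.01 to 8.83%). GTGTG, of the kind hnRNP M binds, stood in 14.0% (10.2 to 18.6%) and 16.0% (13.4 to 18.9%), with overlapping intervals. The shares of G runs and T runs move with the GC content given above, and the part of GC content in them was not tested. GCACG, a weaker Rbfox site, stood in 4.20% (2.19 to 7.21%) and 3.79% (2.51 to 5.46%), within each other's interval.

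Clusters found with F125A and not with WT had no such excess. The pentamer stood in 4 of 159 F125A clusters without a WT partner, 2.52% (0.690 to 6.32%), and in 26 of 695 with one, 3.74% (2.46 to 5.43%). The WT clusters without a partner were thus the set with the pentamer at 31.1%, against 2.52 to 4.21% in the other 3 sets of clusters with sequence. Among them the share was 21.7% (12.1 to 34.2%) of the 60 that lay within 100 nt of an F125A cluster, 31.0% (22.6 to 40.4%) of the 113 at over 100 and up to 1000 nt, and 36.3% (27.4 to 45.9%) of the 113 farther off. These intervals overlap.

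MicroRNA hairpins, folded precursors that lie in introns of host genes, gave a separate view of sequence. WT clusters touched 72 of the 1562 hairpins in the RefSeq table, with 106 clusters, of which 18, or 17.0% (10.4 to 25.5%), had no F125A partner. In 54 hairpins every WT cluster had a partner, in 17 none had, and MIR4254 had 1 of each. Where none had a partner, the WT clusters covered a median of 26.3% of the hairpin, against 100% where all had. Each of the 17 had a single WT cluster.

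The mature microRNA lay whole inside an unpartnered cluster for 3 hairpins, which are shown with the seed (bases 2 to 8) in capitals, as RefSeq gives them. Their seeds all differ.
hsa-miR-4525, in RAB40B, chr17:82668281-82668301, minus strand: gGGGGGAUgugcaugcugguu
hsa-miR-638, in DNM2, a dynamin gene, chr19:10718419-10718443, plus strand: aGGGAUCGcgggcggguggcggccu
hsa-miR-601, in DENND1A, chr9:123402567-123402588, minus strand: uGGUCUAGgauuguuggaggag
In 3 of the 17 the covered part of the hairpin held GCAUG, 17.6% (3.8 to 43.4%), and in 3 of the 54 partnered ones, 5.56% (1.16 to 15.4%), so the intervals overlap. The 3 covered parts are shown with the pentamer in capitals, since they place it beside known precursors.
MIR4525 hairpin in RAB40B, a Rab GTPase gene, chr17:82668261-82668307, minus strand: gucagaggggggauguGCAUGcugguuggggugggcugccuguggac
MIR6133 hairpin in EXOC4, an exocyst subunit gene, chr7:133290881-133290931, plus strand: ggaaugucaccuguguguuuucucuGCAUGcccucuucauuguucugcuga
MIR601 hairpin in DENND1A, a Rab exchange factor gene, chr9:123402560-123402603, minus strand: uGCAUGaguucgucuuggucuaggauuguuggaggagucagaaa
In MIR4525 the pentamer lies within the mature microRNA and in MIR601 at the 5′ side of it. F125A clusters lay 2797 nt from the MIR4525 cluster, 261 nt from that over MIR6133 and 861 nt from that over MIR601.

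Over all 200893, clusters without a partner were shorter than those with one, although length was not part of the rule. Their median length was 57 nt, with quartiles of 46 and 73 nt, against 63 nt and quartiles of 50 and 81 nt. The share without a partner fell with length, from 68.3% (66.9 to 69.7%) of clusters under 30 nt to 57.3% (57.0 to 57.7%) at 50 to 59 nt and 38.7% (37.8 to 39.7%) at 120 nt or more. A longer cluster has more positions at which to meet a partner, and the part of that in this trend was not tested. The longest without a partner were 278 nt in NSUN6 on chromosome 10, 269 nt in FZR1 on chromosome 19 and 248 nt in DENND3 on chromosome 8. The FZR1 cluster ended 2 nt from an F125A cluster and the NSUN6 cluster 91 nt from one.

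The rule left out WT clusters that overlap an F125A cluster, so the distances to F125A clusters are a description and not a finding. The median distance to the nearest F125A cluster on the strand, over the 200892 that had one on their chromosome, was 988 nt (quartiles 298 and 2936 nt), and the median distance to the nearest other WT cluster was 362 nt (89 and 1065 nt). There were 188027 different F125A clusters to meet and 363377 single-gene WT clusters, so these distances are not measured on equal terms. Within 50 nt of an F125A cluster lay 7.44%, within 1000 nt 50.3% and within 10000 nt 92.3%. At the edge of the rule, 949 clusters, 0.472%, touched an F125A cluster without sharing a base, among them 1 in SKI (chr1:2235523-2235581) and 1 in CLSTN1 (chr1:9773015-9773071). Just outside it, 679 partnered clusters shared exactly 1 nt, among them 1 in CAMTA1 (chr1:7498897-7499039) and 1 in RERE (chr1:8604348-8604395). Partners were otherwise near complete: F125A clusters covered a median of 94.6% of a partnered WT cluster, and 95.3% of these were covered by 50% or more of their length.

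**Figure D2:**
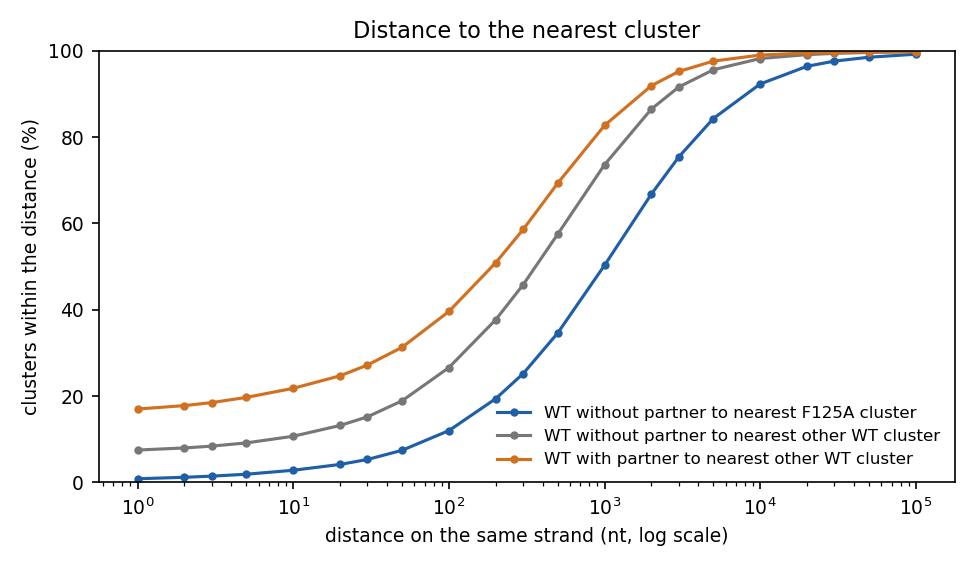
Cumulative share of clusters (percent) within a distance (nt, log axis) of the nearest cluster on the same strand. The curve of WT clusters without a partner to F125A clusters passes 50.3% at 1000 nt and runs below the curve of the same clusters to other WT clusters, which is at 73.6% there. The F125A list holds fewer clusters than the WT list, and the rule left out overlaps with it.

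Clusters without a partner were spread out, and their neighbours resembled them. Where no other WT cluster lay within 1 kb, 64.9% (64.6 to 65.3%) had no partner, and where 10 or more did, 29.0% (27.8 to 30.1%). Of clusters without a partner, 6.83% touched another WT cluster, against 15.7% of those with one. The next WT cluster in the same gene also lacked a partner in 61.2% (61.0 to 61.4%) of cases after a cluster without one, and in 48.1% (47.8 to 48.3%) after a cluster with one. For touching clusters these shares were 75.4% (74.4 to 76.4%) and 12.6% (12 to 13.1%). At gaps of 5000 nt or more they were 68.9% (68.3 to 69.6%) and 67.3% (66.3 to 68.3%), and the intervals met. The likeness of neighbours thus shrank with distance. At short gaps the rule builds in some of it, since 1 F125A cluster can overlap neighbouring WT clusters and give each a partner. The part of that was not tested.

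**Figure D3:**
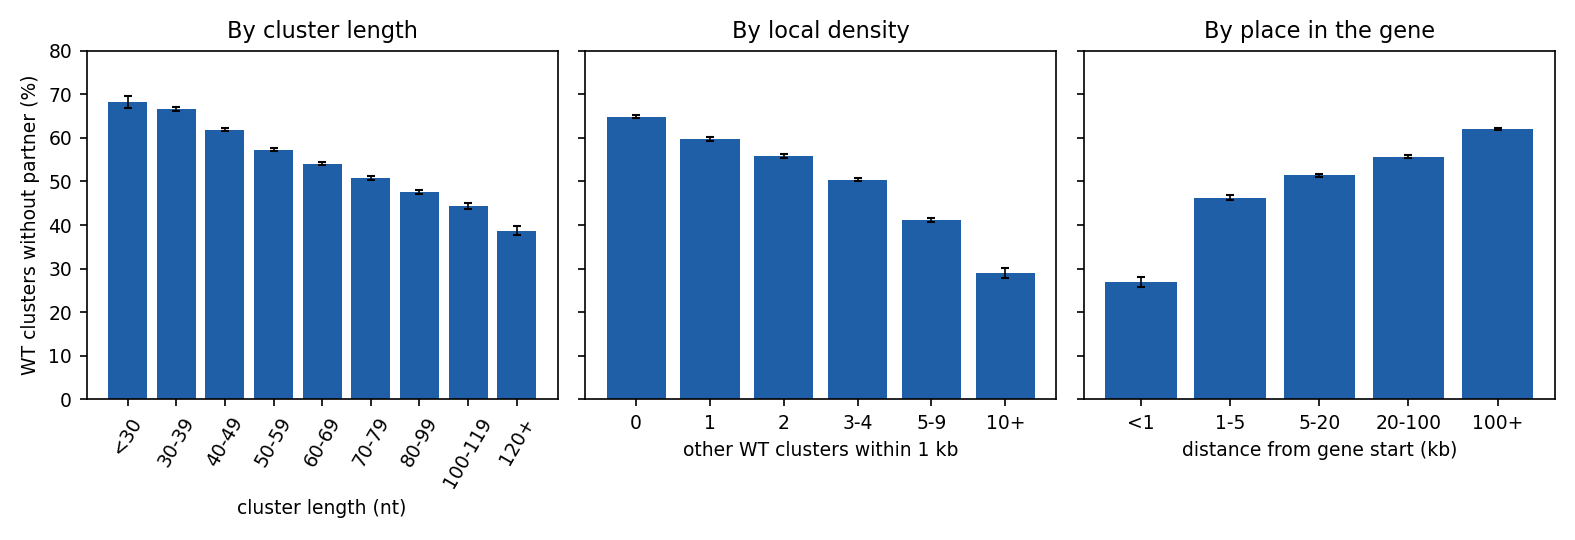
Share of WT clusters without an F125A partner (percent, bars with exact 95% binomial intervals) by cluster length in nt, by the number of other WT clusters within 1 kb, and by distance from the annotated gene start in kb. It falls from 68.3 to 38.7% with length and from 64.9 to 29.0% with density, and rises from 27 to 62.0% away from the gene start.

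Clusters near the start of a gene mostly had a partner. Within 1 kb of the annotated start 27% (25.9 to 28.0%) of 7080 WT clusters lacked one, at 1 to 5 kb 46.3% (45.7 to 46.9%), at 20 to 100 kb 55.7% (55.5 to 56.0%), and beyond 100 kb 62.0% (61.7 to 62.3%). The value within 1 kb was similar in genes under 30 kb (27.2%), of 30 to 100 kb (27.8%) and over 100 kb (24.9%), while beyond 1 kb it was 45.6%, 52.9% and 58.8%. Of the promoter-window sequences above, 157 of 286 without and 438 of 713 with a partner were read from a window named for their host gene. The others were read from a window named for another gene. Such a window need not lie at the gene start used here. The CELF1 cluster at chr11:47524825-47524897, minus strand, was in a CELF1 window, while the annotated start of that gene is at 47565539. Along the gene the share was 48.5% (48.0 to 48.9%) over the first 10% of the length and 59.3% (58.6 to 60.1%) over the last 10%. Of the 830 WT clusters less than 1 kb from the end of their gene, however, 44.5% (41.0 to 47.9%) lacked a partner.

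Long genes held proportionally more clusters without a partner. In the shortest 10% of the 4378 genes with at least 20 WT clusters (6.35 to 30.8 kb) 37.6% (36.8 to 38.4%) lacked a partner, and in the longest 10% (309.7 to 2299 kb) 60.4% (60.1 to 60.8%). Cluster density fell over the same range, from 924.5 to 138.6 F125A clusters per Mb of gene. The difference between the longest and the shortest 10% was 22.8 percentage points. With the genes cut into 3 equal groups by F125A clusters per kb, it turned to -2.69 points in the lowest group and -2.70 in the middle one, and was 17.8 in the highest. F125A clusters enter the rule, so these groups describe the genes and do not correct for density. By chromosome the share ran from 41.4% on chromosome 19 to 61.3% on chromosome 18, over 23 chromosomes.

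The clusters came from 10626 genes, with a median of 7 per gene, and 1065 genes held 50% of them. Among the 4378 genes with at least 20 WT clusters the median share without a partner was 56.4%, with quartiles of 46.7 and 65.0%. As background for the counts below, 52.8% of these genes lay above the share of all clusters, 7.47% had 75% or more of their clusters without a partner and 3.04% had 25% or fewer. All these shares use the contrast of the rule, so they describe where the clusters lie and test nothing.

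The genes with the highest shares, among those with at least 50 WT clusters, ran from 82.7 to 98%. PRR16, on chromosome 5, had 49 of 50 WT clusters without a partner (exact interval 89.4 to 99.9%) and 1 F125A cluster. DYNC1I2, a dynein intermediate chain, had 68 of 78 (77.7 to 93.7%), and SNTG2, a syntrophin, 47 of 54 (75.1 to 94.6%). C18orf25 had 46 of 53, LMO7, a LIM domain protein, 45 of 52, and RSU1, a Ras suppressor, 57 of 66. KATNAL1, a katanin-like microtubule severing subunit, had 45 of 53, CLSTN2, a calsyntenin, 42 of 50, TBC1D1, a Rab regulator, 45 of 54, and DNM3, a dynamin, 43 of 52. These 10 genes had a median length of 243.8 kb. No F125A cluster at all was listed for 1145 genes with a WT cluster, but they held 1.15% of the clusters and a median of 1 each. The fullest of them were STK32C, a serine/threonine kinase, with 32, CHRM3, a muscarinic receptor, with 20, MAP3K9, a kinase, with 19, RGS6, a regulator of G protein signalling, with 17, and CNTFR, a cytokine receptor subunit, with 15.

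The genes with the lowest shares were shorter, with a median of 38.8 kb, and ran from 4.00 to 15.8%. ZNF711, a zinc finger gene on the X chromosome, had 4 of 100 WT clusters without a partner (1.10 to 9.93%) and 131 F125A clusters. TCF3, an E protein transcription factor, had 5 of 59 (2.81 to 18.7%), GRAMD1A 8 of 56, JAG2, a Notch ligand, 9 of 62, and FBXO17, an F-box protein, 10 of 66. ZNF875 had 12 of 78, EIF4G1, a translation initiation scaffold, 9 of 58, and PRDM15 9 of 57. TBCE, a tubulin chaperone, had 2 of 50 and MATR3, which encodes Matrin 3, 8 of 104. Rows identical in both lists made up 48 of the 50 TBCE clusters and 80 of the 104 MATR3 clusters. Without them TBCE had 2 clusters, both without a partner, and MATR3 had 8 of 24, or 33.3%, so their place here rests on those rows.

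Clusters without a partner formed unbroken runs along some genes. Runs of 5 or more consecutive WT clusters of a gene, all without a partner, held 35.1% of them, and runs of 10 or more 7.48%. Clusters with a partner also formed runs, with 23.5% in runs of 5 or more, 4.68% in runs of 10 or more and a longest run of 82. Clusters without a partner are 55.3% of WT clusters, and the more frequent kind meets its like more often. The part of that in these run shares was not tested. The longest run without a partner was in PRR16, with 47 clusters over 166.7 kb (chr5:120464830-120631555, plus strand) and no F125A cluster inside. CACNA2D1, a calcium channel subunit, had 32 over 222.2 kb with 2 F125A clusters inside, although the gene had 62 F125A clusters in all. STK32C had 32 over 67.9 kb and DYNC1I2 31 over 12.7 kb, a denser run than any other of the 10 longest. LMO7 had 29, EPHA6, an ephrin receptor, and GPC5, a glypican, 27 each, and AUTS2, CEP112 and LRP1B 25 each. In DYNC1I2 the run lay at chr2:171699895-171712638 and all 10 F125A clusters of the gene lay outside it, the nearest 11 nt away. In AUTS2, with 1463 WT clusters, the run of 25 spanned 58.3 kb (chr7:70360447-70418725) without an F125A cluster.

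**Figure D4:**
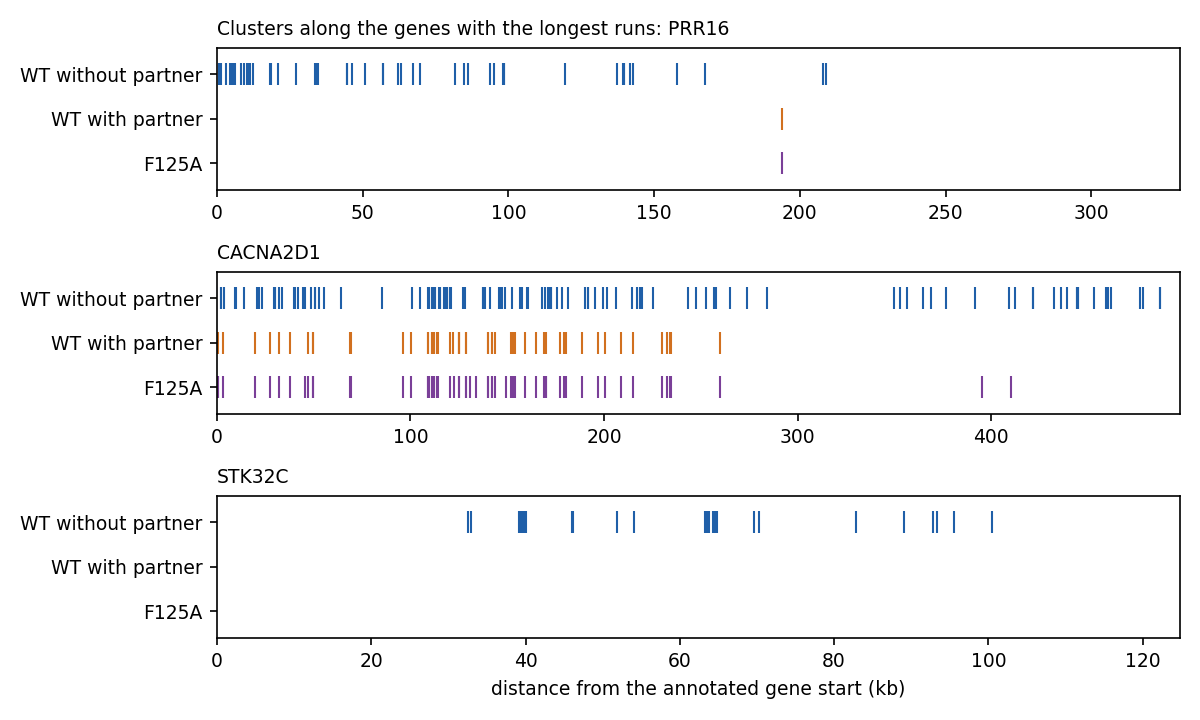
Places of clusters along the 3 genes with the longest runs, as distance from the annotated gene start in kb, with a tick for each cluster. PRR16 has 1 F125A cluster, STK32C has none, and in CACNA2D1, with 62 F125A clusters, 2 of them lie within the run of 32 WT clusters without a partner.

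Genes of the complex itself had few clusters without a partner. Over the 7 LASR subunit genes with a WT cluster, 120 of 436 WT clusters lacked one, 27.5% (23.4 to 32.0%). Of the 5 with at least 20 WT clusters, none lay above the share of all clusters (background 52.8%) and 2 had 25% or fewer (background 3.04%), MATR3, described above, and HNRNPH1 with 3 of 36. Without the 84 clusters identical in both lists, 80 of them in MATR3, the share was 34.1% (29.1 to 39.3%) and 1 of 5 had 25% or fewer. HNRNPC had 48 of 146 and HNRNPM 38 of 76. These genes were short, with a median of 44.1 kb. Among other splicing regulators, 7 of 24 tested genes lay above the share of all clusters, 3 had 75% or more and 7 had 25% or fewer. CELF2 had 141 of 232 without a partner, QKI 122 of 213, MBNL1 99 of 158 and CELF1 47 of 110. The neuronal regulator NOVA1 (41 of 50), PTBP3 (35 of 43) and MBNL2 (15 of 20) were the 3 high ones, and HNRNPL (4 of 35), SRSF6 (3 of 25) and HNRNPU (5 of 34) had the lowest shares.

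Shares in the Rbfox genes lay below that of all clusters. Those in tested genes with Rbfox-regulated exons were spread from 38.1 to 78.4%, and their median was near that of all tested genes. RBFOX2, whose knockout all samples share, had 193 of 407 WT clusters without a partner, 47.4% (42.5 to 52.4%), RBFOX3 had 9 of 20 and RBFOX1 1 of 4. Of 17 tested genes with Rbfox-regulated exons, 9 lay above the share of all clusters (background 52.8%), with a median of 58.9% against 56.4% over all tested genes. ENAH, an actin regulator, had 109 of 274 (39.8%, 33.9 to 45.8%), PTBP2, a neuronal splicing regulator, 93 of 244 (38.1%, 32.0 to 44.5%), MEF2A, a transcription factor, 85 of 169 and CAMTA1 75 of 138. CACNA1C, a calcium channel, lay higher with 85 of 120 (70.8%, 61.8 to 78.8%), and SCN8A, a sodium channel, highest with 29 of 37 (78.4%, 61.8 to 90.2%). These counts take in all introns of a gene, and the clusters beside the regulated exons were not singled out.

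Most tested channel, guidance and fragile site genes lay above the share of all clusters. None of the 3 tested ribosomal protein genes did. Over all clusters of a list the shares were closer to the 55.3% of all clusters: 57.3% (54.6 to 59.9%) for channels, 54.7% (52.9 to 56.4%) for guidance and 60.1% (58.4 to 61.8%) for fragile sites. Of 8 tested ionotropic receptor and channel genes, 6 lay above the share of all clusters and 4 had 75% or more (background 7.47%), with a median of 75% and a median length of 487.3 kb. The kainate receptor GRIK3 had 23 of 25 without a partner, KCNMA1, a potassium channel, 39 of 50, CACNA1D 38 of 49 and GRIK4 24 of 30, while the gene with most clusters, the potassium channel KCNQ5, had 254 of 540 (47.0%, 42.8 to 51.3%). GRID1, a glutamate receptor of the delta type, had 175 of 337, CACNA2D1 122 of 177 and KCNB2 92 of 127. Of 20 tested axon guidance genes, 14 lay above and 5 had 75% or more, with a median of 61.8%. PLXNA4, a semaphorin receptor subunit, had 37 of 42, but SLIT2, a guidance ligand, 418 of 903 (46.3%, 43.0 to 49.6%), EFNA5 252 of 506, ROBO1, a SLIT receptor, 223 of 396 and EPHA7, an ephrin receptor, 61.6% of 203. Of 9 tested genes at common fragile sites, which are very long, 8 lay above, among them FHIT (411 of 710), WWOX (419 of 710), PDE4D (299 of 484) and LRP1B (170 of 210), and IMMP2L (356 of 684) lay below. Over 76 cytosolic ribosomal protein genes 158 of 580 WT clusters lacked a partner, 27.2% (23.7 to 31.1%), with 2 of 26 in RPL5, 6 of 23 in RPS19, 6 of 21 in RPS24 and 6 of 16 in RPS14. Only 3 of the 76 had the 20 WT clusters needed to be tested. Some of the others, with few clusters each, lay above the share of all clusters. Gene length and cluster density moved with these differences, and their part was not tested.

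**Figure D5:**
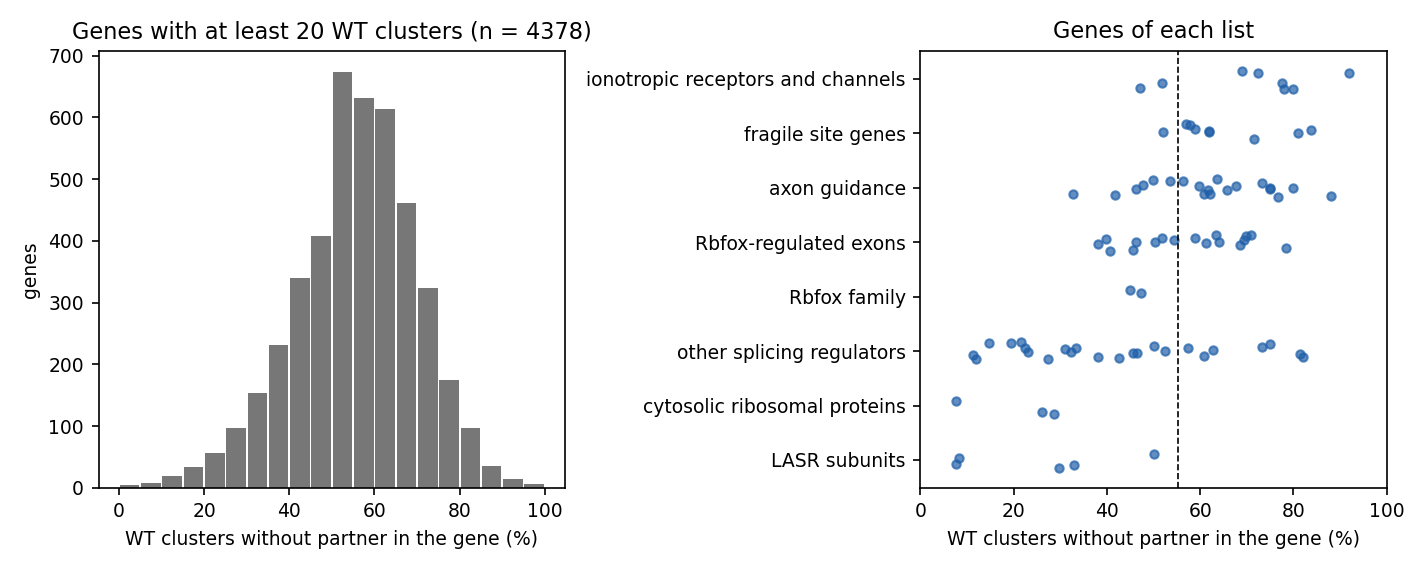
Left, the number of genes by the share of their WT clusters without an F125A partner (percent), for the 4378 genes with at least 20 WT clusters. Right, the same share for each tested gene of 8 lists, a point per gene, with a dashed line at the 55.3% of all clusters. The 5 LASR subunit genes and 3 ribosomal protein genes with at least 20 WT clusters lie left of the line, and 6 of 8 channel genes lie right of it.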

How the data were processed

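Nuclease-protected RNA from 3 WT and 2 F125A libraries was analysed through 1 list of clusters per group. The submitters' processing notes name cutadapt, STAR and the build hg38. Tool versions, how clusters were called and at which threshold, whether the control was subtracted and how libraries were pooled are not given in the sources used here. For each cluster the authors deposited, per the file headers, places and names alone: chromosome, start, end, gene, region and strand, without a read count, score or p-value. Deposited starts were taken to count from 0, and 1 was added for printing.

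The WT list held 373458 rows with 7029 repeats, and 3052 clusters naming several genes were left out. The F125A list held 188027 different rows, all of which could be partners. Per-sample columns left unused numbered 0. Gene names were matched to RefSeq GRCh38.p14 genes by symbol (11467), by a synonym of 1 gene (76) or not at all (8). Of the clusters, 363310 lay inside their gene's bounds. Sequences came from RefSeq promoter windows of 300 bases and hairpins of the same build.

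Shares carry exact (Clopper-Pearson) 95% intervals, and clusters of 1 gene are not independent. No test was run. Overlap and motif code was tested on simulated data. Python 3.11.15, pandas 2.3.3 and scipy 1.17.1 were used. The members, gene lists and motifs were chosen with earlier results of these data known. Named genes are the 10 highest and 10 lowest shares with at least 50 WT clusters, the 5 fullest genes without F125A clusters, up to 4 largest genes of each list, the 10 longest runs, the 5 longest clusters without a partner, and the 5 just inside and 5 just outside the rule. HNRNPH1, CACNA1C, SCN8A, NOVA1, PTBP3, MBNL2, HNRNPL, SRSF6, HNRNPU, PLXNA4, GRIK3, GRIK4, KCNMA1, CACNA1D, KYNU, ARHGAP15 and IKZF1 fall outside that rule and were chosen after their values were seen. A gene that the rule names is not reported here. Over marker genes there were 14 WT clusters in kidney and epithelial genes, 73 in neuron genes, 67 of them in SYT1, 1 each in blood and muscle genes and none in liver genes.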

Additional observations from a re-analysis of the deposited data

How the results depend on the processing

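The share of WT clusters without a partner, 55.3%, was 51.2% when an F125A cluster within 50 nt counted as a partner. It was 57.4% when 50% of the cluster had to be covered and 55.6% with clusters closer than 50 nt merged. The share was 54.8% with rows naming several genes and 55.9% without clusters identical in both lists. Of the 6807 identical clusters 3755 named a single gene, and the others were all 3052 clusters that name several. Those 3052 thus had a partner in advance, and adding them could only lower the share. The length difference of -6 nt became -11 nt after merging. The median distance of 988 nt became 1151 nt without clusters within 50 nt of an F125A cluster. The difference between the longest and the shortest 10% of genes, 22.8 points, was 21.7 with at least 50 WT clusters per gene, 27.1 by the median gene, 17.8 in the highest of 3 groups by F125A clusters per kb, and reversed to -2.69 in the lowest and -2.70 in the middle group. The cause was not tested. The share of clusters within 1 kb of the gene start, without minus with a partner, was -2.23 points, against -4.97 for 5 kb and -0.809 in genes over 100 kb. The pentamer difference of 26.9 points was 18.5 for the hexamer, and lay between 26.2 and 29.8 under the 8 other settings, 6 of which were chosen after seeing the data. They included stretches of 20 nt or more inside a window (117 of 384 against 38 of 920 clusters), starts read as 1-based and 1 cluster per window. Without clusters identical in both lists, a setting also added after seeing the data, the share in LASR subunit genes went from 27.5% to 34.1%, and in ribosomal protein genes from 27.2% to 27.6%. No paired analysis was possible because each group has 1 list and the lists hold no columns for replicates, and for the same reason no replicate could be left out. Without read counts, depth sets an unknown limit on which clusters were listed.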

Other observations

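No single-gene cluster of the WT list overlapped an F125A cluster on the opposite strand. Without a partner it was 0 of 200893, which allows a share of up to 0.00149% by 3 counts (exact upper limit 0.00184%). With a partner it was 0 of 162484, up to 0.00185% (0.00227%). Clusters naming several genes were not included. How clusters were called and assigned to a strand is not known, so these values do not measure protection of opposite strands. Among the clusters with sequence, 197 without a partner and 683 with one held no GCATG. There the pentamers with the largest difference were TTGTT (17.3% and 6.73%), TCTTT (16.8% and 6.73%) and TGTTT (18.3% and 8.49%), and no motif of the Rbfox type was among the first 6. Of clusters without a partner, 1.73% (1.67 to 1.79%) touched a WT cluster that had one. The members farthest from any F125A cluster of their strand lay in IKZF1, a lymphoid transcription factor gene, at 4624962 nt, KYNU, at 4344493 nt, and ARHGAP15, at 4329372 nt.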
